A study of Mus musculus with 26 samples.

Results

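Immunoglobulin gene segments were followed in bulk RNA sequencing of sorted bone marrow progenitors, the granulocyte-macrophage progenitors (GMPs) and common myeloid progenitors (CMPs). Segments were the genes whose symbol begins with the heavy, kappa or lambda prefix followed by a variable, diversity, joining or constant letter, and a segment was kept where its count, summed over the 16 GMP and CMP libraries, was at least 20. Of 52636 genes, 395 were annotated segments, and 134 of these passed. The symbol pattern also took in Ighmbp2, a helicase gene, which is no segment and was left out. The summed count that chose the members is described here without a test. The members just inside the limit were Ighv1-25, Ighv1-67, Ighv1-73 and Igkv6-14 at 20 reads each, and the segments just outside it were Ighv3-3 and Igkv4-73 at 18 reads each.

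The series held 26 libraries. Wild-type (WT) GMPs, Prss57-/- GMPs, WT CMPs and Prss57-/- CMPs had 4 libraries each, all from female mice and 1 sequencing run. WT and Prss57-/- bone marrow-derived mast cells (BMMCs), grown from GMPs in interleukin-3 and stem cell factor, had 5 libraries each from male mice and another run, and are given as levels only. Prss57 encodes neutrophil serine protease 4, and the Prss57-/- mice, which the labels call NSP4 KO, carried a germline deletion of exon 2 made in C57BL/6N embryonic stem cells, with wild-type littermates as controls. Both progenitors were sorted as lineage-negative, SCA-1-negative, CD117-positive and CD34-positive cells, with CD16/32 high in GMPs and low in CMPs. The lineage stain of both sorts held B220, a marker of B cells. The labels do not say whether libraries were pooled from several mice, so the p-values measure the spread between these libraries.

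The GMP libraries held 35501671 to 51497962 reads on genes and the CMP libraries 32078404 to 53264762. The GMP marker list (8 of 8 genes at or above 3 reads in every library) summed to 57700 to 74300 CPM (reads scaled to a common library size with TMM factors) in GMPs and to 8230 to 18900 in CMPs, and the erythroid and megakaryocyte list (7 of 7 genes) to 268 to 428 in GMPs and 1590 to 2970 in CMPs. Prss57 itself was at 427 to 658 CPM in WT GMPs, 55.7 to 104 in WT CMPs and at most 0.611 in Prss57-/- libraries. Prss57-/- GMP library 2 lay apart from the other GMP libraries in the members themselves, and Prss57-/- CMP library 2 was the highest CMP library for Igkc. Values that move most with either are given with and without it.

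In B cells, 1 variable, 1 joining and, in the heavy chain, 1 diversity segment are joined by DNA rearrangement, and the joined exon is spliced to a constant gene. Each B cell clone therefore transcribes its own variable genes. The heavy constant gene sets the antibody class: Ighm gives IgM, Ighd IgD, Igha IgA, and the Ighg genes IgG. Kappa (Igkc) and lambda (Iglc) constant genes give the light chains. Transcription from unrearranged heavy chain genes, which carries Ighm sequence without a variable gene, is known from early blood progenitors. The rearrangement itself needs Rag1 and Rag2, and Dntt adds bases at the joints.

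Of 348 annotated variable segments, 119 were members, with 52 heavy, 64 kappa and 3 lambda genes. Of 14 joining segments, 6 were members, and of 13 constant genes, 9 were. None of the 20 diversity segments was a member, and all 20 had 0 reads. They are 10 to 29 bases long, shorter than the 50-base reads. Of 133 annotated pseudogene segments, 4 were members: Ighv1-41, Igkv4-56, Ighv1-25 and Ighv1-73. The constant genes outside the limit were Ighe at 15 reads, Ighg3 at 6, Ighg2c at 2 and Iglc4 at 0.

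The joining members are shown because the shortest transcript of each is about as short as 1 read. For Igkj2, at 39 bases, and Ighj2, at 48 bases, that transcript is shorter than the whole gene, whose coordinates are given below. The sequences are those of the GENCODE M21 transcripts on GRCm38, 5′ to 3′, and the capitals mark the codons of the conserved tryptophan-glycine (heavy) or phenylalanine-glycine (kappa) pair with which each joining segment closes the antigen-binding loop.
Igkj1: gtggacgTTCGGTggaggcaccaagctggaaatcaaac
Igkj2: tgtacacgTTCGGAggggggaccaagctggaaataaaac
Igkj4: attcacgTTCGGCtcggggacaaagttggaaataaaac
Ighj1: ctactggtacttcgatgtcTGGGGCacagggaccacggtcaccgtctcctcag
Ighj2: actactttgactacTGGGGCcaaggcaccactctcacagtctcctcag
Ighj4: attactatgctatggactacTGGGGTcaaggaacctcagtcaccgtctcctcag
The kappa segments lie on the forward strand of chromosome 6 (Igkj1 at chr6:70722562-70722599, Igkj2 at chr6:70722916-70722958 and Igkj4 at chr6:70723548-70723585) and the heavy ones on the reverse strand of chromosome 12 (Ighj4 at chr12:113428514-113428567, Ighj2 at chr12:113429468-113429567 and Ighj1 at chr12:113429781-113429833). Igkj2 had 170 reads over the 16 libraries, Ighj1 154, Ighj4 99, Igkj4 53, Ighj2 46 and Igkj1 37. Together they held 559 reads, or 0.191% of all member reads.

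The members held 293210 reads over the 16 libraries, and constant genes took 92.0% of them. Ighm alone took 57.3%, Igkc 19.4% and Igha 14.1%. The kappa variable genes held 5.42%, the heavy variable genes 1.86% and the lambda variable genes 0.488%. The other constant genes were Iglc2 with 1318 reads, Iglc1 with 1293, Ighd with 395, Iglc3 with 275, Ighg2b with 114 and Ighg1 with 22. Per length, on the deposited normalized RPKM, the levels in WT GMPs were 231 ± 75.0 (SD, n = 4) for Igkc, 135 ± 16.2 (SD, n = 4) for Ighm and 38.3 ± 15.9 (SD, n = 4) for Igha. In WT CMPs the order differed, with Ighm at 104 ± 5.46 (SD, n = 4), Igkc at 56.2 ± 5.43 (SD, n = 4) and Igha at 3.54 ± 0.807 (SD, n = 4). The ranges of Igkc and Ighm overlapped between the genes in GMPs and not in WT CMPs.

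All members together summed to 601, 689.7, 634.1 and 498.1 CPM in the WT GMP libraries 1 to 4 and to 438.3, 839.8, 473.9 and 414.8 CPM in the Prss57-/- GMP libraries. In the WT CMP libraries the sum was 262.3, 273.5, 266.3 and 271.7 CPM, and in the Prss57-/- CMP libraries 274.2, 276.7, 256.6 and 250.4 CPM. Every GMP library was thus above every CMP library, the genotypes overlapped in GMPs and in CMPs, and the CMP libraries lay within a narrow range. In these bulk samples, more cells of a kind and more RNA per cell cannot be told apart. Without Ighm the sum ranged from 110.0 to 571.5 CPM over the GMP libraries and from 37.21 to 116.2 over the CMP libraries, and the cell types then overlapped through Prss57-/- CMP library 2.

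Ighm (chr12:113418558-113422730, reverse strand), the constant gene of IgM, was even across the libraries. It was at 235.6, 251.6, 294.8 and 315.0 CPM in WT GMPs, 236.6, 268.3, 350.2 and 304.8 CPM in Prss57-/- GMPs, 198.3, 194.1, 207.9 and 215.2 CPM in WT CMPs and 236.9, 160.6, 207.1 and 180.5 CPM in Prss57-/- CMPs. Its highest library held 8.52% of its reads. The WT GMP libraries were all above the WT CMP libraries, at a log2 fold change of 0.40 (standard error 0.11). The adjusted p was 0.0188 by the quasi-likelihood test of edgeR after Benjamini-Hochberg correction (hereafter adjusted p from edgeR), and the change was under the 2-fold limit for a call. Ighm in Prss57-/- GMPs against CMPs had a log2 fold change of 0.55 (standard error 0.19, adjusted p = 0.0633 from edgeR), and the lowest GMP library lay just under the highest CMP library.

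Igkc (chr6:70726435-70726966, forward strand), the kappa constant gene, was at 190.1, 162.7, 148.7 and 82.83 CPM in WT GMPs and at 33.32, 37.58, 30.88 and 36.47 CPM in WT CMPs. In Prss57-/- GMPs it was at 84.52, 261.6, 50.59 and 55.80 CPM and in Prss57-/- CMPs at 16.97, 73.20, 22.85 and 36.45 CPM. The WT cell types were well apart, while the Prss57-/- cell types overlapped because GMP libraries 3 and 4 fell below CMP library 2. In the annotation its exon overlaps the long noncoding RNA gene Gm30211 on the same strand, as do the Igkj segments.

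Igha (chr12:113254830-113260236, reverse strand), the constant gene of IgA, had the largest log2 fold change between the WT cell types among the constant genes tested. It was at 88.91, 177.6, 129.8 and 68.44 CPM in WT GMPs and 85.41, 213.0, 43.69 and 27.61 CPM in Prss57-/- GMPs. In CMPs it was at 11.76, 10.87, 12.23 and 6.819 CPM in WT libraries and 11.66, 17.38, 9.023 and 11.28 CPM in Prss57-/- libraries. The lowest GMP library of either genotype was above the highest CMP library, and within the GMPs the libraries spread far more widely than within the CMPs.

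**Figure D1:**
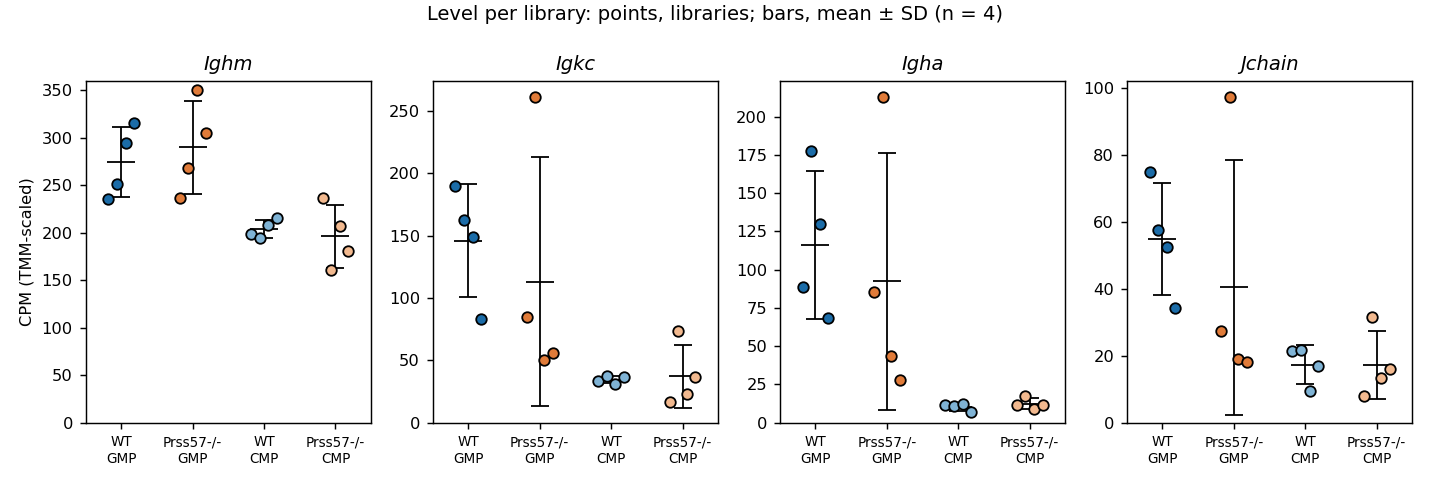
CPM of Ighm, Igkc, Igha and the joining chain gene Jchain in each GMP and CMP library (points), with the mean and SD of the 4 libraries of each group; each panel has its own axis from 0. Ighm was between 160.6 and 350.2 CPM in all groups, while Igkc and Igha were spread widely in GMPs and Prss57-/- GMP library 2 was the highest library for Igkc, Igha and Jchain.

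The comparison of WT GMPs with WT CMPs asked whether the members differed between the progenitor stages. Of 14967 genes tested, 12.8% were called, which needed an adjusted p below 0.01 together with a change of 2-fold or more. Those called higher in GMPs were 6.28% and those called lower 6.53%. Only 24 of the 134 members had enough reads in enough libraries to be tested, which favours members that are high in 1 of the groups. Of these, 9 had an unadjusted p under 0.05 (48.7% of all genes) and 6 an adjusted p under 0.05 (37.8% of all genes). There were 5 members called, all higher in GMPs: Igha, Igkc, Igkv5-43, Igkv6-17 and Ighv1-41. Igha rose by a log2 fold change of 3.45 (standard error 0.31, adjusted p = 1.93e-05 from edgeR) and Igkc by 2.06 (standard error 0.23, adjusted p = 7.75e-05 from edgeR). Igkv5-43, Igkv6-17 and Ighv1-41 passed the filter on low counts through the GMP libraries alone, so that their calls are not independent of that filter. The same calls for Igha, Igkc, Igkv5-43 and Igkv6-17 were made with each library left out.

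Igkv5-43 had 46, 41, 53 and 54 reads in the WT GMP libraries and 0 in all WT CMP libraries, so that it was at least 15.7-fold higher in GMPs against a floor of 3 reads per CMP library. Igkv6-17 had 10, 37, 26 and 13 reads in WT GMPs and 1, 0, 0 and 0 in WT CMPs, a ratio of 84.5 with a counting interval from 14.8 to 3380. That interval is on reads pooled over libraries and leaves out the spread between them. The edgeR fit over libraries gave a log2 fold change of 5.77 (standard error 0.92). Igkv6-17 also had 35 reads in Prss57-/- CMP library 3, more than in any Prss57-/- GMP library. Ighv1-41, which is annotated as a pseudogene, had 19, 36, 13 and 17 reads in WT GMPs and 0, 5, 1 and 0 in WT CMPs, which is 3.66 on the log2 scale (standard error 0.85, adjusted p = 0.00744 from edgeR). That call was lost without WT GMP library 2, 3 or 4 or WT CMP library 1, 3 or 4, at adjusted p-values from 0.0152 to 0.0295.

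Without any test, 10 of the 134 members had all WT GMP libraries above all WT CMP libraries, or fewer than the 13% of all 19439 genes with at least 20 summed reads. They were Ighm, Igkc, Igha, Igkj2, Igkj4, Ighj4, Ighv1-41, Ighv1-82, Igkv5-43 and Igkv6-17. No member had all WT GMP libraries below all WT CMP libraries, against 12.6% of those genes. Ighd, the IgD constant gene, had 16, 30, 8 and 16 reads in WT GMPs and 23, 72, 36 and 29 in WT CMPs, at a log2 fold change of -1.27 (standard error 0.49, adjusted p = 0.0627 from edgeR).

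Between Prss57-/- GMPs and Prss57-/- CMPs, 8.42% of 14959 genes and 1 of 16 members tested were called. Of all genes, 4.04% were called higher and 4.38% lower. An unadjusted p under 0.05 was reached by 6 of the 16 members (40.1% of all genes) and an adjusted p under 0.05 by 3 (21.5% of all genes). The called member was Igha, higher in GMPs, at a log2 fold change of 2.89 (standard error 0.59, adjusted p = 0.00804 from edgeR). It lost the call without GMP library 1 or 3 or CMP library 1, 3 or 4, with adjusted p-values from 0.0103 to 0.0322, and it kept it without GMP library 2. With limma voom the adjusted p was 0.0137. Ighv1-41 had 20, 39, 16 and 36 reads in Prss57-/- GMPs and 0, 0, 6 and 0 in Prss57-/- CMPs, at a log2 fold change of 4.28 (standard error 1.00, adjusted p = 0.0153 from edgeR). It passed the filter on low counts through the GMP libraries alone, so that these values are not independent of that filter. It was at or above 13 reads in all 8 GMP libraries and at or below 6 in all 8 CMP libraries. Igha and Ighv1-41 were the members whose libraries did not overlap between these groups, 2 of 134 against 12.5% of all genes with at least 20 summed reads. Iglc2 went the other way, with 22, 26, 8 and 9 reads in Prss57-/- GMPs and 8, 55, 239 and 178 in Prss57-/- CMPs, and was not called (log2 fold change -2.95, standard error 0.86, adjusted p = 0.0384 from edgeR). In CPM, CMP library 1 lay below all Prss57-/- GMP libraries, at 0.143 against 0.196 to 0.588. Without that library the log2 fold change was -3.35, past the limits for a call (adjusted p = 0.00112 from edgeR). Leaving it out also raised the calls over all genes, from 1259 of 14959 to 2266 of 15204, so the gain was not particular to Iglc2. Igkc did not pass, at a log2 fold change of 1.58 (standard error 0.62, adjusted p = 0.0915 from edgeR). It was 0.77 without GMP library 2 and 2.13 without CMP library 2, and was called in neither.

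Prss57 loss was compared within each progenitor. In GMPs, 0.00681% of 14689 genes were called, which is Prss57 alone, and 0 of 31 members tested. At an unadjusted p under 0.05 there were 4 members, against 0.810% of all genes tested. They were Igkv5-43, Iglc2, Igkv8-21 and Igkv6-17, all lower in Prss57-/- GMPs. Igkv5-43 and Igkv6-17 met the filter on low counts by the WT libraries alone, and Igkv8-21 mostly by them, so that this count is not independent of that filter. At an adjusted p under 0.05 there were 0, against 0.0136%. DESeq2 called 1 member, Igkv5-43, and limma voom called 0. Over all 14689 genes, DESeq2 called 2 and limma voom 1. The log2 fold changes of the constant genes were 0.09 for Ighm (standard error 0.14), -0.37 for Igkc (standard error 0.49) and -0.33 for Igha (standard error 0.55), each with an adjusted p of 1.00 from edgeR. Without Prss57-/- GMP library 2, they were -1.19 for Igkc and -1.15 for Igha, again with an adjusted p of 1.00 from edgeR. The median log2 fold change of the members tested was -0.37, against 0.00 over all genes. It was -0.76 over the members tested without Prss57-/- GMP library 2, -0.08 without WT GMP library 2 and -0.90 with limma voom.

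The member with the smallest p was Igkv5-43, with 46, 41, 53 and 54 reads in WT GMPs and 0, 0, 0 and 5 in Prss57-/- GMPs. This gave a log2 fold change of -5.01 (standard error 0.89, adjusted p = 0.949 from edgeR). The difference in mean CPM was -1.07, given without a test because the gene was picked for its small p. It was the only member whose libraries did not overlap, 1 of 134 against 0.725% of genes that lay lower in all Prss57-/- GMP libraries, and 0 members lay higher in all of them, against 0.453%. Iglc2 had 272, 83, 229 and 11 reads in WT GMPs and 22, 26, 8 and 9 in Prss57-/- GMPs, so that WT library 4 lay within the range of the other group (log2 fold change -3.21, standard error 0.83, adjusted p = 1.00 from edgeR). Igkv8-21 had 0, 309, 111 and 104 reads against 0, 18, 0 and 0 (log2 fold change -4.67, standard error 1.40, adjusted p = 1.00 from edgeR), and WT library 1 was at 0.

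The reads of Igkv5-43 (chr6:69823355-69823943, reverse strand) are shown against its closest relative because short reads can be told apart only where the genes differ. Over 379 aligned bases of the GENCODE M21 transcripts it differs from Igkv5-45 (chr6:69775750-69776344, reverse strand) at 6 bases, an identity of 98.4%, and the longest identical run is 193 bases. The last 289 bases of Igkv5-43, with the aligned bases of Igkv5-45, hold 3 of the differences, which are in capitals.
Igkv5-43: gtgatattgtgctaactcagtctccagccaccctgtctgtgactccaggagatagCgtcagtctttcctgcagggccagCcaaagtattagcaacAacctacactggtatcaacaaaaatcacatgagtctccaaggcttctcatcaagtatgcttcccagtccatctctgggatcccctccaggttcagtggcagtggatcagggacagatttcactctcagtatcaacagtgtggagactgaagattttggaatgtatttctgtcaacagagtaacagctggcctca
Igkv5-45: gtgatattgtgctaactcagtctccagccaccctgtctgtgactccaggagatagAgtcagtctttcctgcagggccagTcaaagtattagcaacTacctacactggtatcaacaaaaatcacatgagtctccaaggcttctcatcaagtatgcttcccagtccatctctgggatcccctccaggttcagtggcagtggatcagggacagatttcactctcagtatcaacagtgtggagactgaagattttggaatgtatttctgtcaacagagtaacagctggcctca
Of the 330 stretches of 50 bases in Igkv5-43, 51.2% occur also in another annotated gene, 169 of them in Igkv5-45. Only uniquely aligned reads were counted, so its counts come from the other stretches. Igkv5-45 had reads in Prss57-/- GMP library 1, with 11, and library 2, with 28, and 0 in the other 14 progenitor libraries. Igkv5-48 had 214 of its 221 reads in WT GMP library 1, and Igkv5-39 had 48 reads in WT GMP library 1, 93 in WT GMP library 3 and 0 in the other progenitor libraries.

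In CMPs, 0.00670% of 14916 genes were called upon Prss57 loss, and 0 of 10 members tested. Of the 10, 0 had an unadjusted p under 0.05, against 0.510% of all genes, and limma voom and DESeq2 called 0 members. The smallest p-values were those of Iglc2, Ighd and Iglv1, all with an adjusted p of 1.00 from edgeR. Iglc2 had 18, 10, 130 and 20 reads in WT CMPs and 8, 55, 239 and 178 in Prss57-/- CMPs. Iglv1 had 84, 146, 15 and 0 reads in WT CMPs and 6, 12, 27 and 34 in Prss57-/- CMPs. Ighd had 49, 12, 17 and 0 reads in Prss57-/- CMPs. All these groups overlapped. Iglc1, which was not tested, had 146, 108, 7 and 9 reads in WT CMPs and 2, 0, 5 and 0 in Prss57-/- CMPs, and was the only member whose libraries did not overlap, against 0.520% of genes that lay lower in all Prss57-/- CMP libraries. Members that lay higher in all of them were 0, against 0.530%.

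The genotype effects in GMPs and CMPs were compared in an interaction over the 16 libraries. Of 15900 genes, 0 were called (0%), and 0 of 47 members tested. At an unadjusted p under 0.05 there were 8 members, against 1.06% of all genes, and limma voom and DESeq2 called 0 members. The smallest unadjusted p-values were 0.00274 for Igkv5-43, 0.00324 for Iglc2 and 0.00391 for Igkv17-127, each with an adjusted p of 1.00 from edgeR. Several of these genes were at 0 in whole groups, so no fold change is given. Such genes passed the filter on low counts through the other groups, so that the count of 8 is not independent of that filter.

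The reads of the variable genes were then set beside those of other genes of the same abundance, as a description without a test. A median of 52.1% of a variable member's reads came from its highest library, against 18.5% over the 7508 other genes whose sums lay in the same range of 20 to 1257 reads. In 65 of the 119 variable members (54.6%), over 50% of the reads came from 1 library, against 2.02% of the other genes. The medians differed in the same direction in each range of sums examined. Among variable members with 200 or more reads, 28.1% had over 50% of their reads in 1 library, against 0.107% of the other genes. A median variable member reached 3 reads in 4 of the 16 libraries, and a median other gene in 11. The most widespread were Iglv1 in 15 libraries and Igkv6-15 in 12, and 15 variable members reached 3 reads in 1 library alone.

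**Figure D2:**
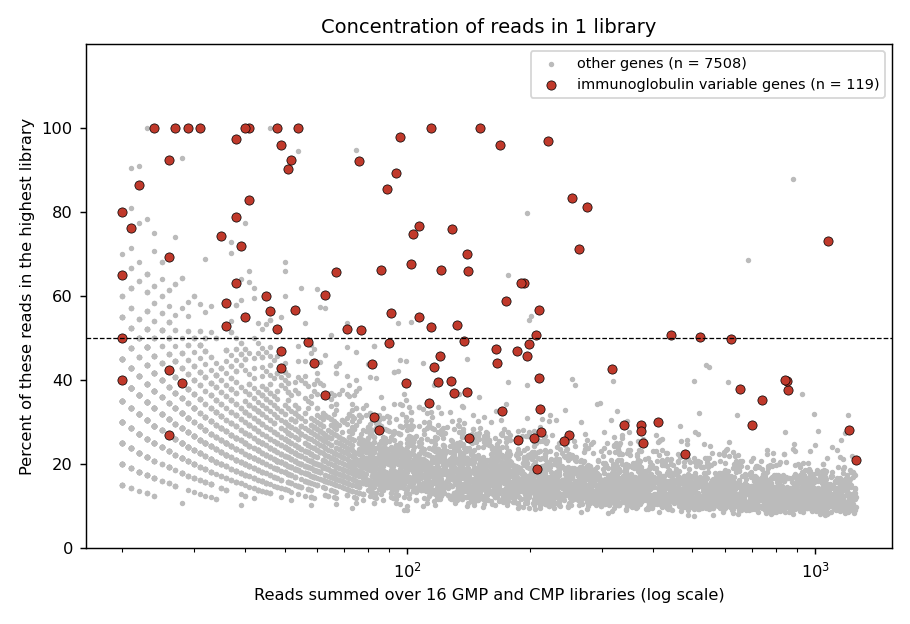
Percent of a gene's reads that came from its highest library against its reads summed over the 16 GMP and CMP libraries, for the 119 variable members and the 7508 other genes in the same range of sums; the dashed line marks 50% of the reads. The variable members had the higher median, 52.1% against 18.5%.

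Several abundant variable genes came mainly from 1 library. Igkv12-46 had 786 of its 1075 reads in Prss57-/- GMP library 2 and 149 in WT GMP library 1. Ighv6-3 had 224 of 276 reads and Igkv4-72 105 of 207 in Prss57-/- GMP library 1. Ighv10-3 with 211 of 253 reads, Igkv4-74 with 263 of 523, Ighv1-64 with 122 of 193 and Ighv5-17 with 119 of 210 were highest in Prss57-/- GMP library 2. Igkv4-50 had 187 of 263 reads in WT GMP library 1, and Igkv8-24 had 225 of 444 in WT GMP library 3. CMP libraries had their own genes as well. Igkv12-89 had all of its 151 reads in Prss57-/- CMP library 2 and Igkv1-88 all of its 114 in WT CMP library 4. Of the 119 variable members, 37 reached 3 reads in GMP libraries alone, 5 in CMP libraries alone and 77 in both, and the highest library was a GMP library for 105. The GMP libraries also held more variable reads.

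**Figure D3:**
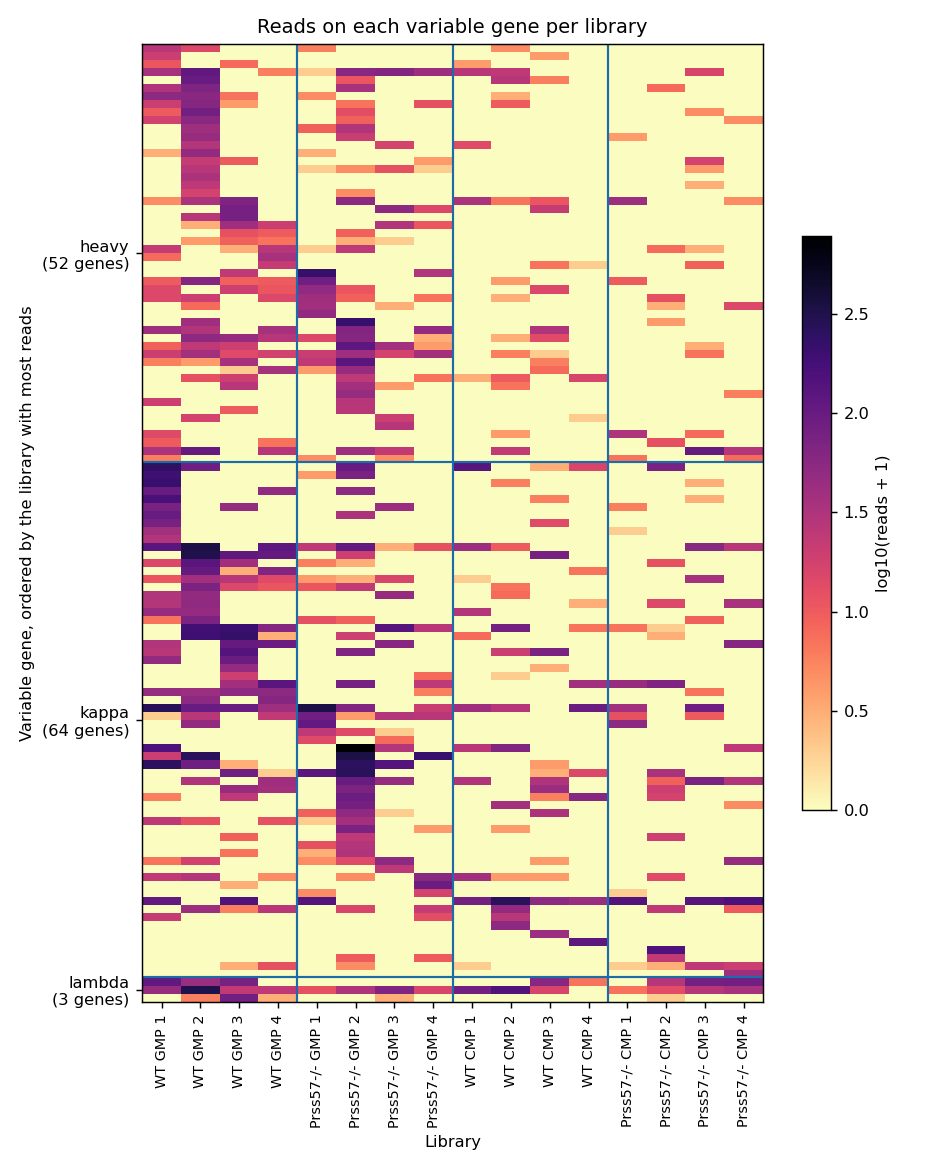
Reads on each of the 119 variable members (rows, grouped by chain and ordered by the library with most reads) in each of the 16 progenitor libraries (columns), as log10 of reads plus 1. Most rows are dark in 1 or a few libraries and empty in the others, and WT GMP library 2 and Prss57-/- GMP library 2 were the highest library for 27 and 26 genes.

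Each library had its own leading variable gene, except that Igkv6-15 and Igkv14-126 led in several. In WT GMPs the leaders were Igkv6-15 with 270 reads (8.76% of the variable reads, Wilson 95% interval 7.81 to 9.81), Igkv6-23 with 340 (8.38%, 7.57 to 9.28), Igkv8-24 with 225 (9.91%, 8.75 to 11.2) and Igkv10-96 with 124 (9.78%, 8.26 to 11.5). In Prss57-/- GMPs they were Igkv6-15 with 339 (22.7%, 20.7 to 24.9), Igkv12-46 with 786 (19.2%, 18 to 20.4), Igkv19-93 with 135 (13.7%, 11.7 to 16) and Igkv15-103 with 218 (28.3%, 25.2 to 31.6). The leader thus took a smaller share in every WT GMP library than in any Prss57-/- GMP library. These intervals cover counting error only, since reads without molecular identifiers are not independent molecules.

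In WT CMPs the leaders were Igkv8-27 with 131 reads (22.5%, Wilson 95% interval 19.3 to 26.1), Igkv14-126 with 264 (28.6%, 25.8 to 31.6), Igkv8-21 with 78 (13.6%, 11.1 to 16.7) and Igkv1-88 with 114 (27.8%, 23.7 to 32.3). In Prss57-/- CMPs Igkv14-126 led in library 1 with 138 (35.0%, 30.5 to 39.9), library 3 with 132 (18.6%, 15.9 to 21.6) and library 4 with 159 (25.5%, 22.2 to 29.0), and Igkv12-89 led in library 2 with 151 (27.4%, 23.8 to 31.2). Igkv14-126, the variable gene with the most reads, reached 3 reads in 7 of 8 CMP libraries and 3 of 8 GMP libraries, and none of its 50-base stretches occurs in another annotated gene. Igkv15-103 and Igkv19-93 reached 3 reads in 4 GMP libraries each and in 0 and 1 CMP libraries.

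The number of variable members at or above 3 reads was 57, 60, 45 and 36 in WT GMPs, 32, 62, 25 and 27 in Prss57-/- GMPs, 14, 27, 25 and 11 in WT CMPs and 13, 20, 19 and 19 in Prss57-/- CMPs. The inverse of the summed squared shares, which would be the number of genes if all had equal reads, was 20.1 to 26.8 in WT GMPs, 8.52 to 15.9 in Prss57-/- GMPs, 5.84 to 13.1 in WT CMPs and 5.49 to 9.31 in Prss57-/- CMPs. It was higher in every WT GMP library than in any other progenitor library, and the variable reads in a library, which differ between the groups as well, were 1268 to 4056, 770 to 4096, 410 to 922 and 394 to 709 in the same order of groups. At this depth, an absent variable gene was not detectable below 3 reads per library.

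Among pairs of libraries, the variable members at 3 reads or more that both held were 1 to 36, or a median of 42.9% of the smaller set over the 120 pairs. For GMP and CMP libraries of the same genotype and replicate number the median was 50.9% over 8 pairs, and for other numbers it was 42.9% over 24 pairs. Nothing in the labels says that equal numbers mark the same mouse.

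By family, Ighv1 held the most variable reads, with 3260 on 30 members (14.3%), followed by Igkv6 with 2778 on 8 members (12.2%), Igkv4 with 2664 on 16 members (11.7%) and Igkv8 with 2029 on 6 members (8.91%). The kappa members were not confined to 1 end of their locus. The 80 annotated kappa variable genes nearer to Igkc (0.0229 to 1.48 Mb) held 35 members and 51.1% of the reads on all annotated kappa variable genes, and the 80 farther ones (1.49 to 3.17 Mb) 29 members and 48.9%. Of the heavy variable genes, the 93 nearer to Ighm held 22 members and 40.6% of the reads on all annotated heavy variable genes, and the 92 farther ones 30 members and 59.4%. A median of 22.2% of a variable member's 50-base stretches occurs in another annotated gene, and in 13 members it was over 50%, so reads of such relatives are partly lost and the counts of single genes are uncertain.

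The lambda genes are few, and in the mouse each variable gene is joined mainly to the constant genes that lie downstream in its own cluster, Iglv2 to Iglc2 and Iglv1 to Iglc1 and Iglc3. Iglc2 had 55 to 272 reads in 7 libraries, and Iglv2 had 27 to 108 reads in the same 7. In the other 9 libraries Iglc2 had 8 to 26 reads, and Iglv2 was at 0 in 8 and at 6 in WT CMP library 4. The reads of Iglv2 per read of Iglc2 in the 7 libraries were 0.328 to 0.518. Iglc1 and Iglc3 together had 59 to 715 reads in 6 libraries, in which Iglv1 had 23 to 323, or 0.348 to 0.746 per constant read. In the other 10 libraries Iglv1 had 0 to 34 reads beside 0 to 27 on the constant genes. WT GMP library 2 had 709 reads on Iglc1 and 6 on Iglc3, while WT CMP library 2 had 108 on Iglc1 and 223 on Iglc3. Iglv3 had 84 of its 94 reads in WT GMP library 3. Iglv1 and Iglv2 share 76 of their 50-base stretches, and Iglc1, Iglc3 and Iglv1 overlap an antisense gene, from which reads cannot be told apart without strand.

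**Figure D4:**
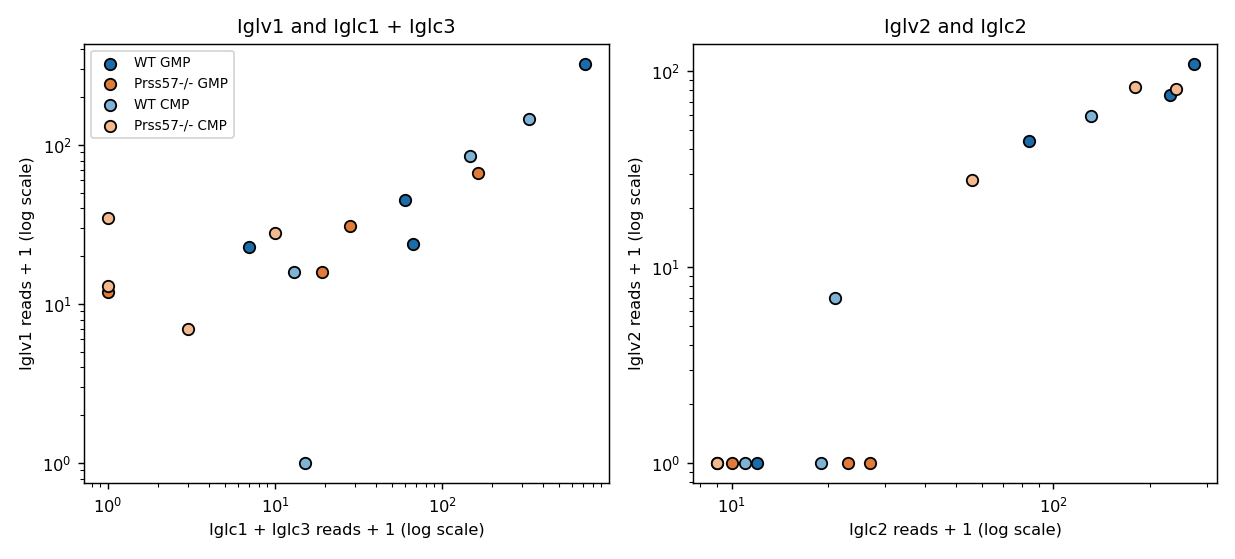
Reads plus 1 on Iglv1 against Iglc1 and Iglc3 together (left) and on Iglv2 against Iglc2 (right), both axes on a log scale, with 1 point for each of the 16 progenitor libraries coloured by group; points at 1 had 0 reads. The 7 libraries with 55 to 272 Iglc2 reads had 27 to 108 Iglv2 reads, and 8 of the other 9 had none.

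The lambda constant genes made up 2.06 to 8.82% of the light chain constant reads in WT GMPs, 0.456 to 7.63% in Prss57-/- GMPs, 2.54 to 17.0% in WT CMPs and 1.04 to 16.1% in Prss57-/- CMPs. The highest share was that of WT CMP library 2 (17.0%, Wilson 95% interval 15.4 to 18.7) and the lowest that of Prss57-/- GMP library 2 (0.456%, 0.349 to 0.596). The groups overlapped. The IgG constant genes were rare. Ighg2b had 64 of 114 reads in WT CMP library 3 and 27 in Prss57-/- GMP library 2, and Ighg1 had all of its 22 reads in Prss57-/- GMP library 4.

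Genes that act with the members were counted as well. Jchain, which joins IgM and IgA units into polymers, rose with Igha and Igkc, at a log2 fold change of 1.63 in WT GMPs against WT CMPs (standard error 0.29, adjusted p = 0.00170 from edgeR). It was at 74.76, 57.50, 52.55 and 34.20 CPM in WT GMPs and 27.43, 97.28, 18.93 and 18.26 CPM in Prss57-/- GMPs. The pairs that follow were chosen after their values had been seen, so their p-values are descriptive and do not test a relation set beforehand. Across the 8 GMP libraries, the CPM of Igkc and Jchain had a Pearson's r of 0.994 and a Spearman's rho of 0.952 (exact permutation p = 0.000198 and 0.00114, adjusted p for r of 0.00198 over 10 relations). Without the 2 libraries farthest from the median of Igkc, r was 0.988. Across the 8 CMP libraries, r was 0.896 and rho 0.905 (exact permutation p = 0.00769 and 0.00456, adjusted p for r of 0.0266), but r was 0.564 without Prss57-/- CMP libraries 1 and 2, so that the relation there rests in part on these.

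Igha and Igkc had an r of 0.873 and a rho of 0.905 in GMPs (exact permutation p = 0.00799 and 0.00456, adjusted p for r of 0.0266), and r was 0.749 without WT and Prss57-/- GMP libraries 2. Igha and Jchain had an r of 0.835 and a rho of 0.905 in GMPs (exact permutation p = 0.0178 and 0.00456, adjusted p for r of 0.0445), and r was 0.688 without the same libraries. In CMPs neither relation of Igha passed, with adjusted p-values for r of 0.205 and 0.210 (exact permutation tests). The relation of Igha with Ighm in GMPs did not pass (r = -0.479, rho = -0.548, exact permutation p = 0.218 and 0.171, adjusted p for r of 0.242), nor did that with Xbp1, a transcription factor of secretory cells (r = -0.398, rho = -0.381, exact permutation p = 0.313 and 0.360, adjusted p for r of 0.313). The corresponding adjusted p-values in CMPs were 0.167 for Ighm and 0.0945 for Xbp1 (exact permutation tests). These pairs were chosen after the values had been seen, so that passing or not passing is a description only. Each pair also shares the depth and scaling of its library.

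**Figure D5:**
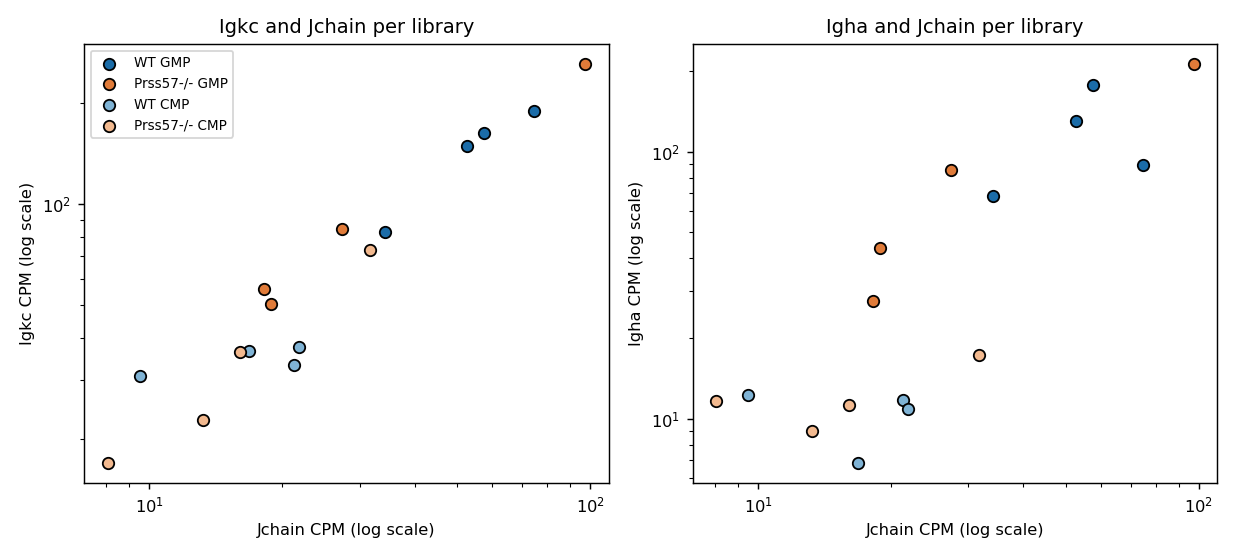
CPM of Igkc (left) and Igha (right) against CPM of Jchain in the 16 progenitor libraries, both axes on a log scale, with points coloured by group. Igkc and Jchain had an r of 0.994 over the 8 GMP libraries on the linear scale, and Igha had an r of 0.835 with Jchain.

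Of the 16 genes of the rearrangement and receptor list, 8 were tested between WT GMPs and WT CMPs. Jchain and Igll1, a surrogate light chain gene, were called higher and Dntt lower, and of the Prss57-/- cell types Dntt alone was called. Over all genes tested, 6.28% were called higher and 6.53% lower between the WT cell types, and 8.42% were called between the Prss57-/- cell types. Dntt had 17, 25, 30 and 20 reads in WT GMPs and 1755, 2102, 2859 and 1912 in WT CMPs (log2 fold change -6.59, standard error 0.20, adjusted p = 1.04e-07 from edgeR). Igll1 had 122, 67, 30 and 48 reads in WT GMPs and 11, 0, 8 and 10 in WT CMPs (log2 fold change 3.12, standard error 0.76, adjusted p = 0.00984 from edgeR). Rag1 had 0 to 17 reads and Rag2 28 to 159 over the 16 libraries. Vpreb2 had 0 reads in all of them. Cd79b, a signalling chain of the B cell receptor, had 1996 to 3725 reads in every progenitor library, while its partner Cd79a had 0 to 32. Upon Prss57 loss, 0 genes of the list were called in GMPs and in CMPs, with 8 tested in each.

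Markers of other cells are given beside these results, and their part in them was not tested. The calls below stand beside 6.28% of all genes called higher and 6.53% lower in WT GMPs against WT CMPs. Between the Prss57-/- cell types 8.42% of all genes were called. The B lineage list (20 genes, which share Cd79b, Dntt and others with the list above) summed to 73.7 to 100 CPM in GMPs and 90.7 to 141 CPM in CMPs, with 1 of 10 genes tested called higher and 1 lower in WT GMPs. Within it, Pax5 had 0 to 6 reads per library, Ebf1 0 to 8, Ms4a1 0 to 20 and Cd79a 0 to 32, while Cd79b had 1996 to 3725, Cd72 279 to 665, Rag2 28 to 159 and Dntt 0 to 2859. The plasma cell list (10 genes) summed to 682 to 852 CPM in GMPs and 420 to 504 CPM in CMPs, mostly from Xbp1 and Txndc5. Of 7 genes tested in WT GMPs against WT CMPs, Jchain and Derl3 were called higher and Sdc1 lower, and 0 of 7 were called in Prss57-/- cells. Within it, Sdc1 had 98 to 694 reads, Tnfrsf17 0 to 15, Prdm1 0 to 27, Irf4 0 to 13 and Mzb1 8 to 56. The plasmacytoid dendritic cell list (8 genes) summed to 128 to 159 CPM in GMPs and 126 to 194 CPM in CMPs, mostly from Bst2 and Tcf4, with Siglech at 0 to 11 reads and 0 genes called. The T cell list (10 genes) summed to 3.33 to 7.02 CPM in GMPs and 6.09 to 9.52 CPM in CMPs, with Cd3e at 0 to 4 reads and 0 genes called. The late neutrophil list (4 genes) summed to 394 to 2340 CPM in GMPs and 4.35 to 32.3 CPM in CMPs. Among the GMPs it was lowest in Prss57-/- library 2, which was highest for Igkc and Igha. It was highest in Prss57-/- library 4, which was lowest for Igha. Other GMP libraries did not follow this order. Prss57-/- library 3 was at 478 CPM with the lowest Igkc (50.59 CPM), and WT library 1 at 1440 CPM with Igkc at 190.1 CPM. A relation was not tested. The mast cell list (4 genes) summed to 417 to 742 CPM in GMPs and 113 to 188 CPM in CMPs.

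In BMMCs the members were nearly absent. Ighm was at 6.698 to 14.89 CPM in the 5 WT libraries and 7.914 to 18.23 CPM in the 5 Prss57-/- libraries, and it had 2750 reads over the 10 libraries, against 155 on all other members. Of the 134 members, 105 had 0 reads in all 10 libraries, and 8 reached 3 reads in any. No comparison was made with the progenitors, because the cultures also differ from them in sex and sequencing run.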

How the data were processed

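Total RNA was sequenced as single-end 50-base reads from a stranded library kit. GSNAP, run in HTSeqGenie by the authors, placed the reads on GRCm38, and those with a single alignment inside exons were counted, and whether the counting used strand is not given in the sources used here. The deposited values were raw counts per gene and normalized RPKM, the count divided by gene length and a size factor. Alignment was not repeated. Reads that span a rearranged joint differ from the genome, and how many of them aligned was not tested. Segment classes and positions came from GENCODE M21.

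Counts were tested in R 4.3.3 with edgeR 4.0.16 (TMM, filterByExpr, robust quasi-likelihood test, Benjamini-Hochberg adjustment over all genes tested), and called below an adjusted p of 0.01 where the change was 2-fold or more. Alternatives were limma 3.58.1 voom, which the study used, DESeq2 1.42.0, other scalings, filters and dispersion, the replicate number as a block, each library left out and an adjusted p under 0.05. Exact permutation tests used scipy 1.17.1, tables used numpy 2.4.6 and pandas 2.3.3, and figures used matplotlib 3.10.9, all under Python 3.11.15. The fits were tested on simulated data, with changed genes drawn from all genes tested and not from the members. At a true log2 change of 1, the GMP and CMP genotype fits called 29 of 97 and 23 of 97 changed genes. The WT and Prss57-/- cell type fits called 37 of 98 and 20 of 97. At a true log2 change of 2, the calls were 92 of 96, 82 of 95, 81 of 93 and 89 of 100 in the same order. Changes near 2-fold were thus mostly missed. The floor was 3 reads per library.

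The members and lists were chosen with earlier results of these data known. Named genes were the 10 members with most reads, all constant members, all called members, the 3 smallest p-values of each comparison, each library's leading variable gene and up to 10 members with over 50% of their reads and at least 50 reads in 1 library. Igkv5-45, Igkv5-39, Iglv2, Iglv3, Ighv1-82 and the relations with Jchain were named after their values were seen. The other experiments of the study were not used here. Some genes of the lists are not reported here.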

Additional observations from a re-analysis of the deposited data

Results flagged for a closer look

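Within groups of 4 or 5 libraries, 28 of 84 sets of values had a library whose gap to its nearest neighbour was large for the range of the group by Dixon's criterion, where chance gives about 1 in 20 for normal values. The rate for sparse counts with several libraries at 0 was not measured. All values are in CPM. Among constant genes, Igkc was at 262 in Prss57-/- GMP library 2 and 1.81 in WT BMMC library 4. Iglc2 was at 2.42 in WT CMP library 3. Iglc1 was at 14.0 in WT GMP library 2 and 3.99 in Prss57-/- GMP library 3, and Iglc3 at 5.04 in WT CMP library 2 and 0.0706 in Prss57-/- CMP library 3. Ighg2b was at 0.611 in Prss57-/- GMP library 2 and 1.19 in WT CMP library 3, and Ighg1 at 0.660 in Prss57-/- GMP library 4.

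Among variable genes, Igkv14-126 was at 2.64 in Prss57-/- GMP library 1. Igkv12-46 was at 3.69 in WT GMP library 1, 17.8 in Prss57-/- GMP library 2 and 0.634 in Prss57-/- CMP library 4. Iglv1 was at 6.37 in WT GMP library 2, Igkv6-23 at 2.42 in Prss57-/- GMP library 2 and Iglv2 at 1.08 in WT CMP library 3. Igkv5-43 was at 0.150 in Prss57-/- GMP library 4 and 0.106 in Prss57-/- CMP library 3. Igkv6-17 was at 0.367 in Prss57-/- GMP library 3 and 0.618 in Prss57-/- CMP library 3, and Ighv1-41 at 0.113 in WT CMP library 2 and 0.106 in Prss57-/- CMP library 3. Igkv8-21 was at 0.407 in Prss57-/- GMP library 2 and 1.45 in WT CMP library 3. All members together were at 840 in Prss57-/- GMP library 2, and the variable members at 92.7 in that library and 0.970 in WT BMMC library 4. In the BMMC libraries, which entered no comparison, Ighm had 2750 reads, above the 3 that a count of 0 allows.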

How the results depend on the processing

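Over 29 results on single genes and 498 values under other settings, 474 kept their direction and side of the threshold, 13 lost a call, 5 gained one and 6 reversed. DESeq2 called 1 member upon Prss57 loss in GMPs and 3 between the Prss57-/- cell types (Igha and Ighv1-41 higher in GMPs, Iglc2 lower), where an adjusted p under 0.05 also gave 3. Over all genes, DESeq2 called 2 of 14689 and 2156 of 14959 in these comparisons. An adjusted p under 0.05 from edgeR was reached by 3222 of 14959 between the Prss57-/- cell types. With a filter of 10 reads in every library, 4 members were tested between the WT cell types and 2 called, of 1522 called among 13034 genes. Each library left out gave 0 members called for Prss57 loss in GMPs, in CMPs and in the interaction, 4 to 6 between the WT cell types and 0 to 2 between the Prss57-/- cell types (0 without Prss57-/- GMP library 1 or 3 or CMP library 3 or 4, and 2 without CMP library 1, Iglc2 and Iglv2, both lower in GMPs). Iglv2 had 0 reads in all Prss57-/- GMP libraries and then passed the filter on low counts through the CMP libraries alone. Its call is not independent of that filter. Over all genes, 1542 of 15260 to 2515 of 15339 were called between the WT cell types. Between the Prss57-/- cell types they were 785 of 15429 to 2266 of 15204, the last without CMP library 1. The replicate number used as a block changed no count of members called (5 and 1 between the WT and Prss57-/- cell types, 0 otherwise). Over all genes, 2000 of 14967 and 1311 of 14959 were then called between the WT and the Prss57-/- cell types. At an adjusted p under 0.05, the block gave 10 members between the WT cell types, against 6 without it, and 6434 genes against 5664. Between the Prss57-/- cell types it gave 4 members against 3, and 3735 genes against 3222. Deviations from the group mean correlated more between libraries of equal number in all comparisons but that of the GMP genotypes. The mean r was 0.16 between the CMP genotypes, 0.13 between the WT cell types and 0.18 between the Prss57-/- cell types. For different numbers it was -0.06, -0.05 and -0.06. Between the GMP genotypes it was -0.01 for equal and 0.01 for different numbers. Single pairs of equal number ran from -0.308 to 0.528. Whether equal numbers share a mouse or a batch was not tested. The Igkv5-43 difference of -1.07 CPM was -1.17 to -1.02 without 1 library. Upon Prss57 loss in CMPs, the log2 fold change of Igkc (0.11) was -0.17 with limma voom, -0.086 by library size, -0.11 with the replicate block, -0.45 without Prss57-/- CMP library 2 and 0.33 without library 1, and that of Ighm (-0.05) was 0.023 and -0.16. In the interaction, Igkc (-0.48) was 0.074 without Prss57-/- CMP library 2 and -1.30 without Prss57-/- GMP library 2. The summed level of WT GMPs over WT CMPs, a ratio of medians of 2.30, was 3.07 on normalized RPKM, 5.76 without each library's top member and 5.14 without constant genes, and the Prss57-/- ratio of 1.72 was 2.73 without the top member. Library size alone moved the median log2 fold change of all genes between the WT cell types from -0.02 to -0.16. A summed count of at least 100 left 74 members. The causes were not tested.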
